A study of Drosophila melanogaster with 4 samples.

Results

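Broad domains of H3K4me3, that is, of histone H3 with 3 methyl groups on its lysine 4, were examined in head nuclei of adult Drosophila melanogaster of the wild-type strain Oregon-R. The domains are the enriched regions of at least 7000 bp in the list for the set of both ChIP replicates, called the combined list here. Of its 4979 enriched regions 405 were this wide, or 8.13% (exact 95% interval 7.39 to 8.93%). They were chosen by their width alone, so their width is a description and no test was made on it. The mark had been mapped by ChIP-seq, in which DNA bound to the marked histone is pulled down with an antibody and sequenced, in 2 replicates, each with an input sample named in the labels as its control. The labels give the stage as mixed adult and the genotype as wild type for all 4 samples. Neither the sex of the flies nor whether the replicates came from separate cultures is given there. Heads hold neurons, glia, eye, fat body and muscle, so a domain may join signal from several cell types.

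H3K4me3 is laid down by methyltransferase complexes of the Set1 and Trithorax family and is found mainly around the start sites of transcribed genes, over the first nucleosomes of the gene body. In mammals unusually wide domains of the mark have been described at genes that define a cell's identity. Whether the fly domains lie at genes of such a kind was not analysed here, since the gene table at hand is of Release 6 of the genome and all positions here are in FlyBase release 5. For the same reason no DNA sequence is given.

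Each region has a position and a score, the authors' own value for it, whose scale and log base the sources used here do not state. Read counts are not part of the lists, and the depth behind a domain is unknown. The intervals given for shares cover counting error only, treat regions as independent, and do not measure the spread between samples. With 2 replicates and members chosen from the lists themselves, no test was made, and the comparisons describe these lists. The combined list is not a further sample beside its replicates.

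The broad domains held a larger share of the enriched bases than of the regions, which follows from their choice by width. They covered 3.83 Mb, or 20.1% of all bases in enriched regions, while making up 8.13% of the regions. Their median width was 8584 bp (interquartile range 7650 to 10562 bp), against 3009 bp for the 4574 narrower regions, and the widest reached 23609 bp. The lists of the replicates held fewer regions of this width, 308 in replicate 1 and 320 in replicate 2, with medians of 8471 and 8518.5 bp. These took 16.1% and 16.7% of the enriched bases of their lists (16.4% ± 0.408, SD, n = 2). The replicates were thus close to each other and both below the combined list.

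The limit of 7000 bp cut through a continuous range of widths. The narrowest domains inside it were 3L:20775157-20782159 with 7003 bp and a score of 2.08, 3R:2204074-2211095 with 7022 bp and 2.41, and 2L:289841-296867 with 7027 bp and 2.31. The widest regions outside it were X:17749939-17756932 with 6994 bp and a score of 1.72, 3L:21208342-21215322 with 6981 bp and 1.94, and 3R:15685025-15691994 with 6970 bp and 2.44. The scores on either side of the limit overlapped.

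Broad domains lay on 8 of the 14 header sequences, and most densely on chromosome 4 and X. The 4 large autosomal arms (2L, 2R, 3L and 3R) together held 279 of them, X held 110 and the small chromosome 4 held 14. Per Mb of sequence this came to 2.89 on the large autosomal arms, 4.91 on X and 10.4 on chromosome 4. The large arms resembled each other, with 2.65 per Mb on 2L, 3.12 on 2R, 2.65 on 3L and 3.12 on 3R.

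Broad domains also made up a larger share of the regions on X and on chromosome 4. They were 12.4% of the X regions (110 of 890, exact interval 10.3 to 14.7%), against 7.11% (6.33 to 7.96%) on the large autosomal arms. On chromosome 4 they were 18.9% (14 of 74, 10.7 to 29.7%). On the single large arms the share ran from 6.61% on 2R to 7.71% on 3R, so X and chromosome 4 lay outside the range of those arms. The excess was present in each replicate list, with 8.18% of X regions and 6.13% of large-arm regions in replicate 1, and 11.0% and 5.86% in replicate 2. The replicates differed in its size, and X had 67 regions of at least 7000 bp in replicate 1 and 91 in replicate 2. On chromosome 4 the replicate lists gave 16.7% and 13.6%, from 11 and 9 regions.

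Counted in bases, X and chromosome 4 also stood above the large arms. Broad domains held 28.6% of the enriched bases on X and 41.1% of those on chromosome 4, against 16.0 to 18.9% on the single large arms. In the replicate lists the X share was 19.6% in replicate 1 and 25.0% in replicate 2, and the large arms together gave 15.1% and 14.6%. X was above the large arms in both, though by less than in the combined list.

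**Figure D1:**
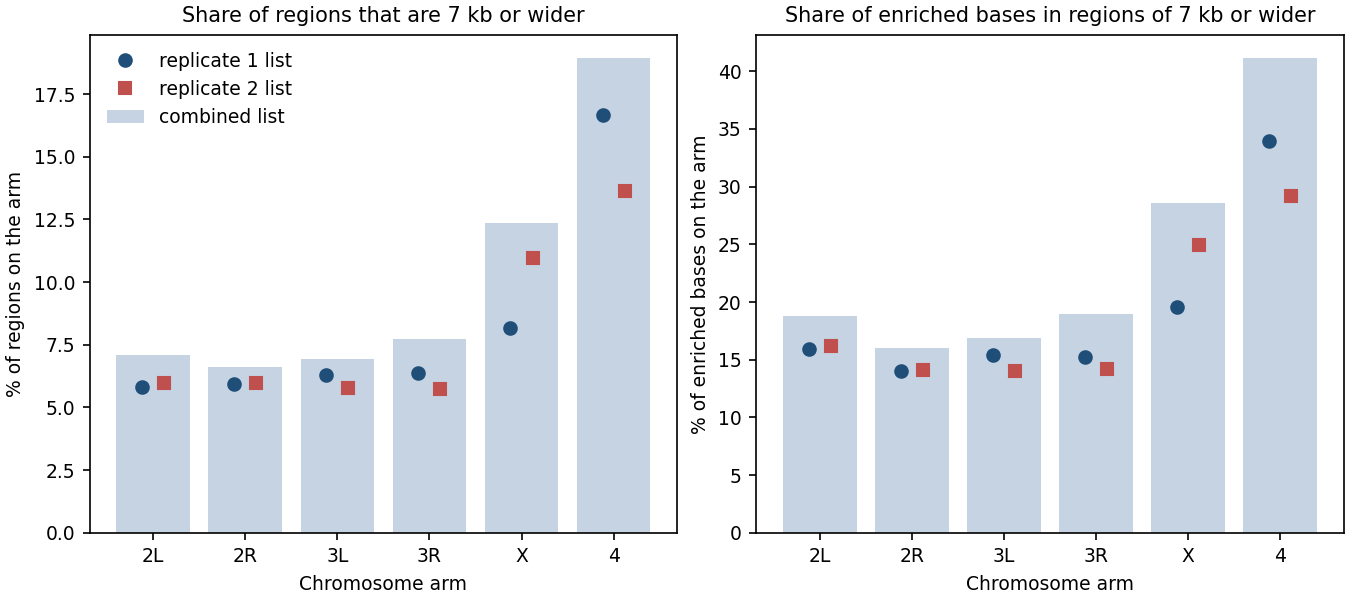
Share of the regions of each chromosome arm that are at least 7 kb wide (left, % of regions) and share of the enriched bases they hold (right, % of enriched bases). Bars give the combined list, circles replicate 1 and squares replicate 2, each with its own regions of that width. X and chromosome 4 stand above 2L, 2R, 3L and 3R in all 3 lists, and the replicates are furthest apart on X and chromosome 4.

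Across all domains 110 of 405 (27.2%) lay on X, where 17.9% of all combined regions lay. In the replicate lists 21.8% and 28.4% of the regions of at least 7000 bp were on X (25.1% ± 4.73, SD, n = 2), against 17.4% and 17.6% of all regions. The share in replicate 1 was thus the nearer to that of all regions. Chromosome 4 held 14 of the 405, beside 1.49% of all combined regions.

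Few domains of this width lay on the Het and unplaced sequences, which held few regions of any width. The Het sequences and the unplaced sequence U held 91 regions, of which 2 were broad (2.20%, exact interval 0.267 to 7.71%). This interval includes the 7.11% of the large autosomal arms. The domain on 2LHet at 29696 to 37006 was 7311 bp wide with a score of 2.35, and each replicate showed it as 1 region, of 7082 and 7159 bp. The domain on 2RHet at 197365 to 204490 was 7126 bp wide with a score of 1.97, while the replicates showed single regions of 5380 and 5330 bp there. Neither had another region within 50 kb, and their nearest neighbours in the list were 128730 and 100255 bp away. The mappable part of these sequences is unknown, and a low number there need not mean less of the mark.

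Broad domains had high scores, at about the level already reached by regions of 4 to 7 kb. Their median score was 2.30 (interquartile range 2.06 to 2.47), against 1.69 (0.787 to 2.20) for the narrower regions. Score and width come from the same list and the members were chosen by width, so this is a description. Scores differed with width mainly below 4 kb. The median score was 0.310 for regions under 2 kb, 1.32 between 2 and 3 kb and 1.96 between 3 and 4 kb, and then 2.22, 2.19 and 2.27 in the next 3 classes of 1 kb. Broad domains continued at this level, with 2.28 between 7 and 8 kb, 2.27 between 8 and 10 kb, 2.37 between 10 and 12 kb and 2.34 above 12 kb. Within the narrower regions wider ones scored higher (Spearman correlation 0.73 and Pearson 0.68 across 4574 regions of 1 list), and within the broad domains the relation was weak (0.09 and 0.10 across 405).

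**Figure D2:**
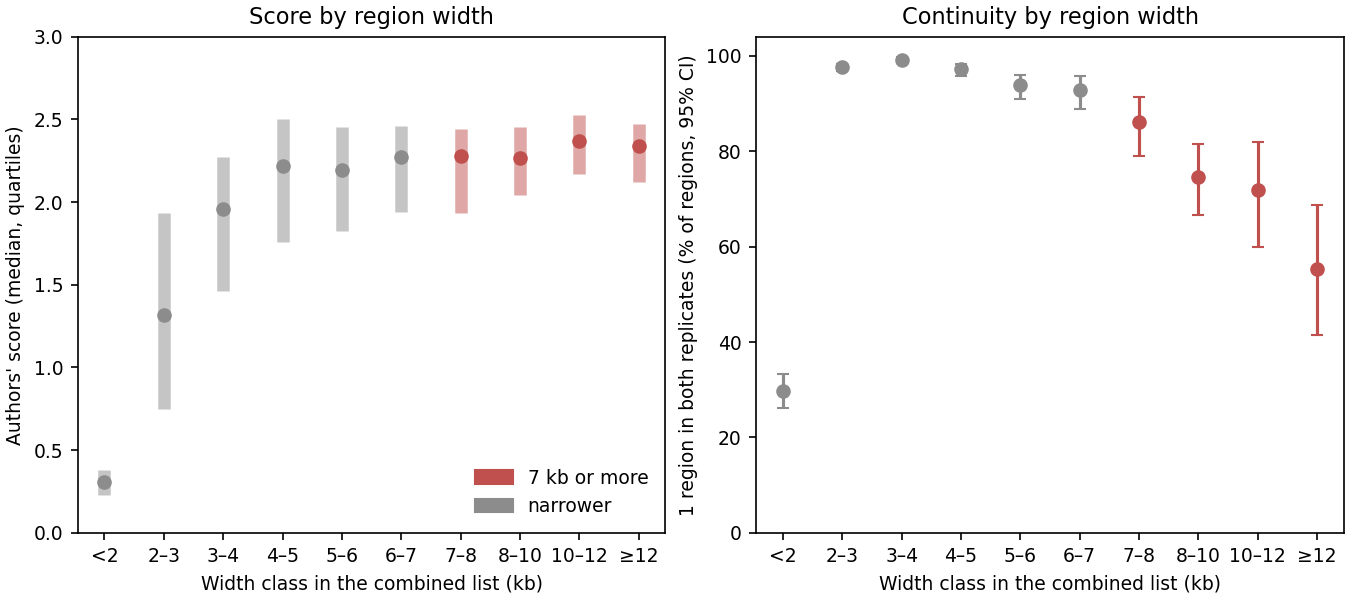
Authors' score (left, median as a point and quartiles as a bar) and share of regions met by exactly 1 region in each replicate list (right, % with exact 95% intervals) by width class in the combined list, in kb. Red classes are the broad domains. The score levels off from 4 kb while continuity falls, from 86.0% at 7 to 8 kb to 55.4% at 12 kb and above.

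The same difference was seen arm by arm. Broad domains had median scores of 2.35 on 2L, 2.34 on 2R, 2.30 on 3L and 2.35 on 3R, and the narrower regions of the same arms had 1.60, 1.69, 1.74 and 1.77. Over the large autosomal arms the medians were 2.34 and 1.70, a difference of 0.635. On X the broad domains had 2.24 against 1.63. Chromosome 4 stood apart with a median of 1.72 for its 14 domains against 1.42 for its narrower regions, the smallest difference of these 6 arms (0.290).

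The range of scores among broad domains was narrow at the top and had a tail below. The 3 highest were 3R:14851868-14859062 with 2.90, 2R:18521575-18529853 with 2.87 and 2R:8641606-8649255 with 2.86. They were not among the widest, at 7195, 8279 and 7650 bp, and each was 1 region in both replicates. Narrower regions reached up to 3.34. A score under 1 was found in 1 broad domain, beside 27.3% of all combined regions. That domain lay on chromosome 4 at 1160838 to 1169354 (8517 bp, score 0.563). The next lowest were also on chromosome 4, at 903024 to 915537 (12514 bp, 1.04), and on 3R at 23475955 to 23483505 (7551 bp, 1.05).

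By the median, broad domains lay closer to other enriched regions than the narrower regions did. The nearest other enriched region was a median of 2275 bp away, against 3349.5 bp for the narrower regions. The 50 kb on either side of a domain was covered by other regions to a median of 23.0%, against 18.9% around narrower regions. The direction was not the same on every arm. The covered share of the flanks was higher for broad domains on 2L (25.3% against 17.9%), 3R (23.5% against 18.5%), 2R (24.8% against 21.4%) and X (25.8% against 19.9%), nearly equal on 3L (18.6% against 18.3%) and lower on chromosome 4 (20.8% against 23.4%). A neighbour closer than 500 bp was found for 72 broad domains (17.8%), beside 13.6% of all combined regions. The highest share was on 2L, with 27.9%, followed by 20.7% on 3R and 15.2% on 2R, against 10.5%, 14.2% and 10.4% of the narrower regions. It was below that of the narrower regions on 3L (9.23% against 14.0%) and chromosome 4 (7.14% against 15.0%), and about equal on X (18.2% against 18.3%).

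Clusters were formed by joining broad domains with at most 20 kb between them. This put 120 of the 405 domains (29.6%) into 53 clusters, of which 43 were pairs, 10 held at least 3 domains and the largest held 5. The other 285 domains stood alone. Of all combined regions 21.3% had another broad domain within 20 kb. Members of clusters made up 37.3% of the domains on X, 26.9% on the large autosomal arms and 4 of 14 (28.6%) on chromosome 4. Of the narrower regions there 29.4%, 18.8% and 41.7% lay within 20 kb of a broad domain. The order was thus reversed on chromosome 4. It was also reversed on 3L, with 15.4% of the domains and 17.0% of the narrower regions. The median distance to the nearest other broad domain on 3L was 182836 bp for domains and 87582 bp for narrower regions. On X these distances were 36790 and 50892 bp. Clusters had a median span of 28545 bp. The share of a cluster's span in enriched regions had a median of 80.7%, and in 26 of the 53 no narrower region lay between the members.

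The cluster with the most members lay on 2L at 10305927 to 10381658 and held 5 domains of 7663 to 10757 bp with scores from 1.79 to 2.36. The gaps between them were 1726 to 14054 bp, and 2 narrower regions lay between. With a joining gap of 50 kb it grew to 9 domains over 241837 bp, at 10199297 to 10441133, and then took in the 20030 bp domain on the same arm. Of its first 5 members 4 were 1 region in both replicates.

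The other 9 clusters of at least 3 domains lay on X, 2R and 3R. X had both clusters of 4 and 3 of the 7 clusters of 3, and 2R and 3R had 2 clusters of 3 each. On X at 15601494 to 15659407 there were 4 domains of 7181 to 12272 bp, with scores from 2.31 to 2.42, all of them 1 region in both replicates. Also on X, at 16211865 to 16275424, there were 4 domains of 7335 to 10482 bp with lower scores, from 1.35 to 2.15, of which 2 were 1 region in both replicates. Of the 7 clusters of 3, those with the most bases in broad domains are described. On X at 11461237 to 11513387 lay 3 domains of 14983, 14972 and 9719 bp with no narrower region between. The middle one had a score of 1.42, and the outer ones had 2.32 and 2.31. The other lay on 3R at 11152306 to 11204313, where domains of 8759, 8706 and 23609 bp and 1 narrower region filled 87.1% of the span.

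**Figure D3:**
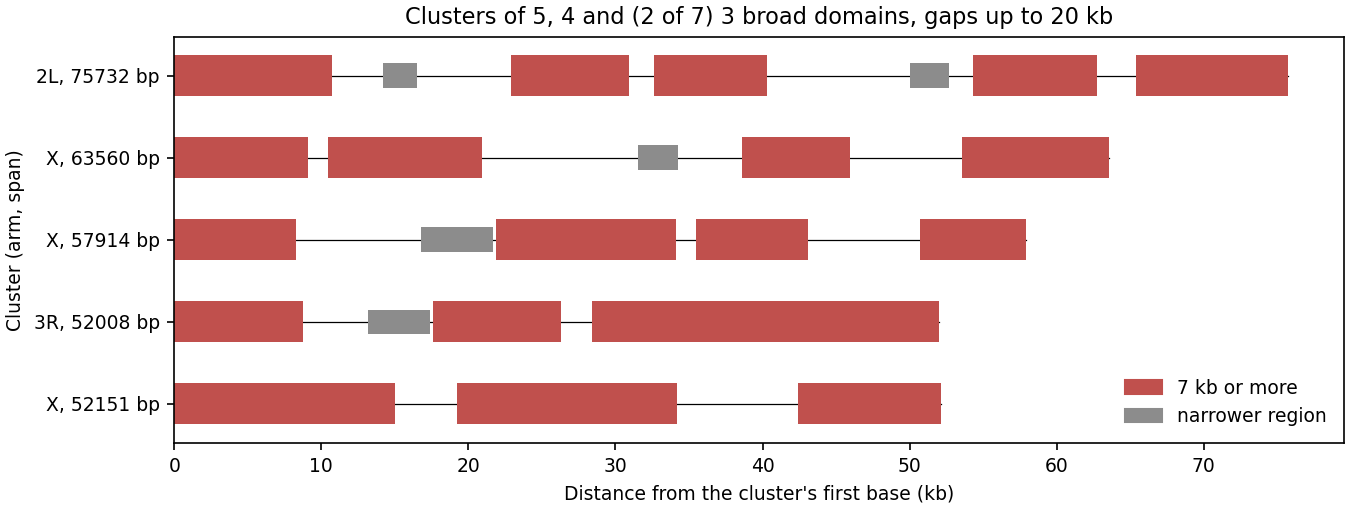
The clusters of 5 and 4 broad domains and, of the 7 clusters of 3, the 2 with the most bases in broad domains, drawn from the cluster's first base (horizontal axis, kb). Red blocks are domains of at least 7 kb and grey blocks the narrower regions between them, on lines that mark the span. The cluster on 2L has 5 domains over 75732 bp, and the lowest cluster, on X, has 3 domains and no narrower region.

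The domains were unevenly spread on a larger scale too. In 244 bins of up to 500 kb along the large arms, X and chromosome 4, the median bin held 1 broad domain and 62 bins (25.4%) held none. At the other end 17 bins held 5 or more, and these contained 103 domains, or 25.6%. Enriched regions of any width were not counted by bin. Whether broad domains were less evenly spread than all regions is therefore not known. The fullest bins held 9 domains each, on 2L at 10000001 to 10500000 and on X at 15500001 to 16000000, followed by 8 each on 2R at 19500001 to 20000000 and 3R at 5000001 to 5500000. Long stretches without a broad domain were not empty of the mark. On 2R no broad domain lay between 14505961 and 16526249, a stretch of 2020.289 kb with 81 narrower regions. On 2L the longest such stretch was 1590.833 kb with 79 narrower regions, on 3L 1464.439 kb with 48, on 3R 1264.213 kb with 46 and on X 903.029 kb with 20.

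Every broad domain overlapped regions of both replicates (405 of 405), beside 89.9% of all combined regions. Most other regions above 2 kb were found in both too. Exactly 1 region in each replicate met 97.6% of the regions of 2 to 3 kb and 99.2% of those of 3 to 4 kb. Under 2 kb this share was 29.6%. Most broad domains were also continuous. In 305 domains (75.3%, exact interval 70.8 to 79.4%) each replicate list showed exactly 1 region, beside 86.6% of all combined regions. The latter share counts a region that a replicate lacks as not continuous. Of the 4475 combined regions that overlapped both replicates 96.3% were continuous, and of the narrower ones among them 98.4%. Taken alone, replicate 1 showed 1 region in 330 domains and replicate 2 in 337. The domain was split into several regions in both replicates in 43 cases (10.6%), beside 1.16% of all combined regions, in replicate 1 only in 32 and in replicate 2 only in 25. A wider domain has more room for a gap, so the shares of unlike widths are not alike by construction.

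Splitting was more frequent in the wider classes. Exactly 1 region in each replicate was found for 97.2% of regions between 4 and 5 kb, 93.8% between 5 and 6 kb and 92.9% between 6 and 7 kb. Among broad domains the share was 86.0% between 7 and 8 kb, 74.6% between 8 and 10 kb, 71.8% between 10 and 12 kb and 55.4% (exact interval 41.5 to 68.7%) above 12 kb. The median domain continuous in both replicates was 8419 bp wide and scored 2.34. For domains split in both the medians were 10249 bp and 2.18. Their score quartiles overlapped, at 2.12 to 2.50 and 1.98 to 2.35.

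Where both replicates showed a single region, its width was closely repeated. The median absolute difference was 130 bp (interquartile range 60 to 305 bp), and 257 of the 305 domains (84.3%) agreed within 500 bp. The largest difference was 3283 bp. Widths correlated with a Spearman coefficient of 0.94 and a Pearson coefficient of 0.98 across these 305 domains, which were all chosen from a list that both replicates had shaped. The widest of them lay on 2L at 10421104 to 10441133, with 19897 bp in replicate 1 and 19980 bp in replicate 2. Its scores were 2.45 and 2.35 in the replicate lists and 2.39 in the combined list. The domain on 2L at 4964700 to 4984181 had nearly the same ends in both replicates, with 19391 and 19367 bp, and scores of 2.84 and 2.72.

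The gaps that split domains were short. There were 78 gaps inside domains in replicate 1, with a median of 150 bp (interquartile range 47.5 to 309 bp), and 75 in replicate 2, with a median of 151 bp (65 to 296 bp). Of these 67 and 65 were under 500 bp, and the longest were 1735 and 1689 bp. In total the gaps made up 19798 bp in replicate 1 and 19374 bp in replicate 2, out of 3.83 Mb. When replicate regions closer than 500 bp were joined, 96.3% of the domains became 1 region in both replicates.

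In most domains split in both replicates a gap fell at the same place in both. Of the 43 domains split in both, 35 (81.4%, exact interval 66.6 to 91.6%) had a gap in replicate 1 that overlapped a gap in replicate 2. Over all domains 36 of the 78 gaps in replicate 1 (46.2%) and 36 of the 75 in replicate 2 (48.0%) overlapped. Gaps in domains split in 1 replicate only are among the others. The 36 gaps of each replicate that overlapped lay with their centres a median of 71 bp apart. They had medians of 209.5 and 238.5 bp, and the others had medians of 130.5 and 113 bp. On 2R at 19907342 to 19927611 the gap was 601 bp in replicate 1 and 1117 bp in replicate 2, and the shorter one lay inside the longer. The domain on X at 15872871 to 15889883 had gaps of 1001 and 920 bp, with the second region starting at 15882780 in replicate 1 and 15882738 in replicate 2.

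In 8 of the 43 domains split in both no gaps overlapped. On 3R at 11180705 to 11204313, the widest domain, replicate 1 showed regions of 9972, 8877 and 3777 bp and replicate 2 regions of 3923, 5671 and 12377 bp. The first gap of replicate 1 ran from 11190537 to 11190664, and the second gap of replicate 2 from 11190697 to 11190745, so they lay side by side without sharing a base. On 2R at 19430606 to 19444594 replicate 1 showed 2 regions and replicate 2 showed 4. The gap of replicate 1, of 10 bp, lay inside the first gap of replicate 2, of 50 bp, and replicate 2 had further gaps of 10 and 27 bp. Some domains were split in a single replicate. The domain on 3R at 5311941 to 5320235 was 1 region of 7862 bp in replicate 1. In replicate 2 it appeared as 3 regions of 2131, 1861 and 3844 bp with scores of 0.562, 0.451 and 1.48.

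Within split domains the narrower piece usually had the lower score, as narrower regions did in the combined list as a whole. In the 75 domains split in replicate 1 the widest piece had a median score of 2.33 and the narrowest 1.91, and the narrowest scored lower in 59. In the 68 domains split in replicate 2 the medians were 2.35 and 1.91, and the narrowest scored lower in 53. The narrowest pieces, with median widths of 2882 and 3101.5 bp, were not low for their width, since all regions of 2 to 4 kb had median scores of 1.77 in the list of replicate 1 and 1.74 in that of replicate 2. A score under 1 was found in 21 of the 153 pieces (13.7%) in replicate 1, beside 20.3% of all regions of that list. In replicate 2 it was found in 18 of 143 (12.6%), beside 21.2%. The domain at the start of chromosome 4, at 143774 to 158792 (15019 bp), had a region of 1726 bp with a score of 0.498 beside one of 11960 bp with 1.72 in replicate 1. Replicate 2 gave 1886 bp with 0.455 and 12702 bp with 1.59. The narrow first piece was therefore the weak one in both replicates.

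A stricter view asks whether a replicate itself showed a region of at least 7000 bp in the domain. Both replicates did in 271 domains (66.9%), replicate 1 only in 34, replicate 2 only in 47, and neither in 53. The 53 had a median width of 7702 bp and reached 13349 bp. Of these, 25 were 1 region in both replicates. Their replicate regions covered between 61.9 and 98.9% of the domain, with medians of 85.4% in replicate 1 and 91.8% in replicate 2.

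Each replicate covered nearly all bases of the domains. Regions of replicate 1 covered 95.8% of the 3.83 Mb and those of replicate 2 covered 96.7% (96.2% ± 0.654, SD, n = 2), against 91.6% and 91.8% of the narrower regions. The latter shares include regions that a replicate lacks, since 4070 of the 4574 narrower regions overlapped both replicates. The median domain was covered to 98.1% and 98.4%. What was missing lay mainly at the ends, with 87.8% of the uncovered bases in replicate 1 and 84.8% in replicate 2 outside the outermost replicate region. A covered share under 80% was found in 12 domains in replicate 1 and 13 in replicate 2.

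Domains on X were less fully covered in replicate 1. The X domains were covered to 91.7% in replicate 1 and 96.3% in replicate 2, while those of the large autosomal arms gave 97.7% and 97.2%. This was not particular to broad domains. The narrower X regions were covered to 85.4% and 90.2%, against 93.1% and 92.4% for those of the large arms. The uncovered ends took 7.41% of X domain bases in replicate 1 and 3.29% in replicate 2. On the large arms they took 1.99% and 2.30%. More than 1000 bp was missing at the ends of 24 X domains in replicate 1 and 11 in replicate 2. Of the 110 X domains 20 were split in replicate 1 only and 6 in replicate 2 only. Of the 279 domains on the large arms these numbers were 12 and 18. Of the 74 X domains that were 1 region in both replicates, 56 were wider in replicate 2, with a median change of 287 bp from replicate 1 to replicate 2. On the large arms 102 of 218 were wider in replicate 2, with a median change of -11 bp. The replicates are single samples, and whether this difference is technical was not tested.

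The domains that differed most between the replicates in covered share were mostly on X. The one at 17540078 to 17547544 (7467 bp) was covered to 64.8% in replicate 1 and 99.7% in replicate 2. At 16265396 to 16275424 (10029 bp) the shares were 66.5% and 100%, and at 365742 to 377446 (11705 bp) they were 72.9% and 100%. These 3 were more complete in replicate 2. The opposite was found on 3L at 10324660 to 10332361 (7702 bp), with 93.3% and 67.3%, and on X at 14953312 to 14962340 (9029 bp), with 93.3% and 68.3%.

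**Figure D4:**
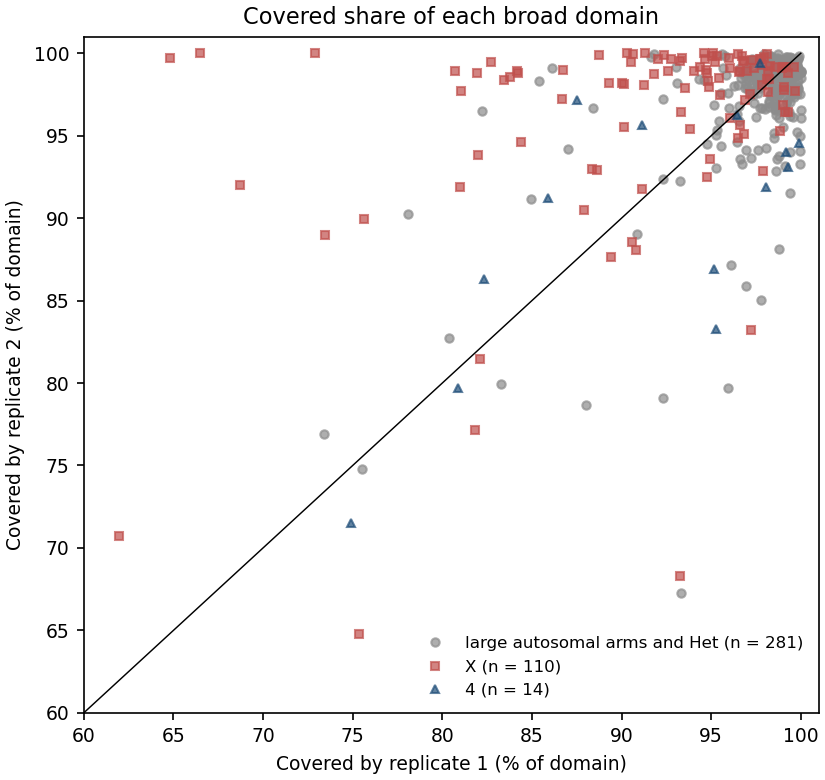
Share of each of the 405 broad domains covered by regions of replicate 1 (horizontal axis, %) and replicate 2 (vertical axis, %), with squares for X, triangles for chromosome 4 and circles for the rest, and a line of equality. Most domains lie near the upper right corner, and X domains of low coverage in replicate 1 lie mainly above the line.

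Chromosome 4, the smallest chromosome and one rich in heterochromatin, differed from the large arms in several of these measures, none of which was tested. Its 14 domains covered 10.3% of the chromosome, against 2.70% of the large arms and 4.77% of X. Their median width of 8814.5 bp was close to the 8540 bp of the large arms, and their median score of 1.72 was below all 4 of them. Their nearest enriched neighbour was a median of 6678 bp away, against 3288 bp for the narrower regions of the chromosome, the reverse of the order on the large arms and X. Both replicates covered them less fully than the domains of the large arms, with 91.4% and 90.7%. The narrower regions of chromosome 4 were covered to 86.1% and 83.6%, also less than the 93.1% and 92.4% on the large arms. Of the 14, 11 were 1 region in both replicates, and 9 of these were narrower in replicate 2, with a median change of -439 bp. The domain at 903024 to 915537 showed 3 regions in each replicate, with scores, in order of position, of 0.392, 0.825 and 1.46 in replicate 1 and 0.516, 0.853 and 1.59 in replicate 2. With 14 domains on 1 chromosome these values rest on few regions.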

How the data were processed

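Per the submitters' processing notes, the authors aligned reads with Bowtie 0.12.7. The deposited lists give regions with a score per region in FlyBase release 5 coordinates, per the file headers. Not given in the sources used here are the caller, its threshold, how replicates were combined and the score's scale, which can change the number, width and splitting of regions. A score was compared only within its list, and replicate scores are given side by side. The 2 depleted entries of the combined list were left out.

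An overlap needed 1 shared bp or more. Replicate pieces, gaps, flanks of 50 kb and clusters with a joining gap of 20 kb were computed with Python 3.11.15, numpy 2.4.6, pandas 2.3.3 and scipy 1.17.1, and drawn with matplotlib 3.10.9. The steps were checked on simulated data. Share intervals are exact (Clopper-Pearson, 95%). Depth is unknown, since no read counts are given. No tests were made. Named domains are the 10 widest, the 5 widest that were continuous, the 5 with the most pieces, the 5 clusters with the most members (ties to the one with more bases in broad domains), the 3 highest and 3 lowest scored, the 5 most different between replicates, the widest of each sequence and the 3 on either side of the limit. Only part of those are printed. The members, lists and alternatives were chosen with earlier results of these data known. Alternatives were other widths, joining gaps, overlap rules and each replicate alone.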

Additional observations from a re-analysis of the deposited data

How the results depend on the processing

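No paired analysis was possible because the input samples have no list of their own here and no result comes from a test. Of 36 alternative values for 6 results 20 moved, and 16 stayed within 1.5 times (counts), the exact interval of the share, or 1 SD between replicates. With limits of 6000, 8000 and 10000 bp the number of domains was 645, 269 and 127, and the share of domains continuous in both replicates 81.9%, 69.9% and 64.6%. The share in clusters was 40.2% at 6000 bp and 11.0% at 10000 bp, and 20.0% and 44.9% with joining gaps of 10 and 50 kb. Clustering therefore depends strongly on both choices. Joining replicate regions closer than 500 bp raised continuity to 96.3%. The score difference of 0.635 on the large arms, the one result with a sign, stayed positive. It was 0.667, 0.607 and 0.614 at those limits, and 0.513 against narrower regions found in both replicates. All these settings kept narrow, low-scoring regions in the comparison, so the unchanged sign is no test of robustness. Over all sequences, classes nearer in width differed little. Median scores were 2.22 at 4000 to 5000 bp, 2.19 at 5000 to 6000 bp and 2.27 at 6000 to 7000 bp. At 7000 to 8000 bp the median was 2.28. With a single replicate the share on X was 21.8 to 28.4% and the score difference 0.534 to 0.543. Continuity in 1 replicate alone was 81.5 to 83.2%, counted over the same 405 domains of the combined list. By construction it cannot be below the share for both replicates. The X share without replicate 2 was the lower one, 21.8%. The lists hold no depth, so the precision of a domain's ends is not known.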

Other observations

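The reverse of splitting, a replicate region that reached over several combined regions, was rare. Each replicate list had 7 such regions. None of those in replicate 1 touched a broad domain, and 4 of those in replicate 2 did. The widest of these lay on X at 15623078 to 15635370 (12293 bp) and reached both a broad domain and the narrower region before it. The others entered only the last bases of the domains 3R:19581747-19591509, X:7799039-7808523 and X:21218695-21226877. These domains count as split in replicate 2 through that overlap. With an overlap of at least 50% of the replicate region required, 75.8% of the domains were continuous in both replicates, against 75.3%. A single replicate region of at least 7000 bp lay outside all broad domains. It was found in replicate 1 on 2R at 1607920 to 1616148 (8229 bp), where the combined list had regions of 1900 bp (score 0.313) and 6324 bp (score 1.10).

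Broad domains also stood side by side with no other region between them. There were 41 such neighbouring pairs, with a median of 2586 bp between the domains, and in 2 pairs the gap was under 500 bp. Broad domains were 8.13% of all combined regions, so some would be neighbours in any order. The number for a random order was not computed, and the 41 pairs do not show that domains seek each other. The smallest gap was 59 bp.

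The 2 depleted entries of the combined list, both on 2L, lay outside the broad domains. The entry at 11056298 to 11057749 was 317161 bp from the nearest domain, and the entry at 16847593 to 16849161 was 113359 bp from its nearest. The narrower regions of 2L lay a median of 119034 bp from the nearest broad domain, which is between these 2 distances. The nearest enriched regions of any width were 8017 and 18715 bp away.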
